A study of Mus musculus with 8 samples.

Results

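The proteasome genes of mouse CD4 T cells were described in wild-type cells and in cells that lack Bcl6, on 8 Affymetrix whole-transcript arrays. Members were chosen by symbol alone: every gene named Psma to Psmg followed by a digit and measured by a transcript cluster with 1 gene symbol, pseudogene symbols left out. A transcript cluster is the set of probes that the array reads as 1 transcript. This gave 50 of 19938 genes, read by 56 clusters, and for the 5 genes with several clusters the one with the highest mean was kept. A further cluster that names Psme2b together with Psme2 was not used here. Both groups held naive CD4 T cells (the labels add the tag Tf0 without a meaning) stimulated with antibodies to CD3 and CD28 for 24 hours, so both genotypes were measured in activated cells. The wild-type group had 4 arrays. The other group had 4 arrays from mice with a conditional deletion of Bcl6, a transcriptional repressor that follicular helper T cells need to form, in T cells only (Bcl6 cKO below). The labels name neither the Cre driver nor the exons removed, and they give no strain or age. Nothing in them ties the replicates to separate mice or cultures, so each p-value reflects only how these arrays scatter, which may be technical.

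The proteasome is the barrel-shaped protease that degrades ubiquitin-tagged proteins. Its 20S core stacks rings of alpha and beta subunits, and 3 of the beta subunits cut. The 19S cap recognises ubiquitin, and its ring of ATPases unfolds the substrate and feeds it into the core. In lymphocytes, and in other cells under interferon-gamma, the inducible subunits Psmb8, Psmb9 and Psmb10 take the places of the constitutive Psmb5, Psmb6 and Psmb7, which gives the immunoproteasome, known for making peptides that fit MHC class I molecules. Activated T cells are known to need a large proteasome capacity as they grow and divide.

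Promoter stretches of 4 members are shown because their values carry the comparisons below: a constitutive catalytic subunit, the inducible subunit that replaces it, the inducible subunit that varied most, and the activator whose groups did not overlap. Each is the 250 bases before the annotated start, 5′ to 3′ on the gene's strand, from RefSeq on GRCm38.p6. Capitals mark letter matches: an antioxidant response element (TGACNNNGC) in Psmb5, a gamma-activated site (TTCNNNGAA) in Psmb8, a CCAAT box in Psmb9, and an ETS site (CCGGAAG), an E-box (CACGTG) and a CCAAT box in Psme3. Matches on the other strand are marked too, while the loose NF-kappaB pattern searched below, which also occurs in the Psmb9 stretch, is left in lower case.
Psmb5, chr14:54617996-54618245, minus strand: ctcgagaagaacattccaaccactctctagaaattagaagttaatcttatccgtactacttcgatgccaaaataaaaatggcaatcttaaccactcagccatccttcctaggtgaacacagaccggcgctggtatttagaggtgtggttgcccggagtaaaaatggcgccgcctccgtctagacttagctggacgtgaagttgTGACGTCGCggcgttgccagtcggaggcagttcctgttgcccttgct
Psmb8, chr17:34197945-34198194, plus strand: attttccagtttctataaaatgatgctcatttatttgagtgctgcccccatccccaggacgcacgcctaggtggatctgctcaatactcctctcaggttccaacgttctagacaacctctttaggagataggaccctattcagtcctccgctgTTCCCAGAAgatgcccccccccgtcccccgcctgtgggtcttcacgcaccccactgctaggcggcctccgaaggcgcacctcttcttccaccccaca
Psmb9, chr17:34187331-34187580, minus strand: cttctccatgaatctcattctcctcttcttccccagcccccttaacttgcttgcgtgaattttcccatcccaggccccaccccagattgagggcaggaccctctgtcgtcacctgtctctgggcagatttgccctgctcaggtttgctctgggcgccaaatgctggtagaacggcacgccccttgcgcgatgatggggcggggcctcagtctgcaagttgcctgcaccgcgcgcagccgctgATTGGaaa
Psme3, chr11:101315963-101316212, plus strand: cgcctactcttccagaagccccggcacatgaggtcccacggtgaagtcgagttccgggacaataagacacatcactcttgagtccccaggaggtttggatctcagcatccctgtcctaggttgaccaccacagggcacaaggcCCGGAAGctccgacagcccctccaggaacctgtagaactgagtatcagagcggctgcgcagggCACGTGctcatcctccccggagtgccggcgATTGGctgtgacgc

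In windows of 300 bases (250 before and 50 after the start), 10 motifs were searched on both strands in the 42 members with a RefSeq promoter and in all 27025 genes of the table. The ETS site stood in 16 of 42 members (38.1%), against 9.93% of all genes. The Bcl6 site TTCCTNGAA, a special case of the gamma-activated site, was in no member's window, against 1.86% of all genes. The gamma-activated site was in Psmb8, Psmd2 and Psmg1 (7.14%, against 9.55%). The interferon-stimulated response element was in 5 members (11.9%, against 3.99%), among them Psme1. The antioxidant response element was in 6 (14.3%, against 14.0%) and the E-box in 5 (11.9%, against 8.09%). The CCAAT box was in 16 members (38.1%, against 41.1%) and the NF-kappaB site in 24 (57.1%, against 53.5%). The cyclic AMP response element TGACGTCA was in none (against 2.03%), and the NRF1 site in Psma2 and Psmg1 (4.76%, against 1.07%). These are matches of letters, not shown sites of binding.

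The arrays as a whole set the frame for these values. All signals below are deposited log2 signals, and the median over all genes lay between 7.57 and 7.64 on the 8 arrays. Bcl6 read 8.47, 8.33, 8.56 and 8.10 on wild-type replicates 1 to 4 and 9.05, 8.67, 8.83 and 8.40 on Bcl6 cKO replicates 1 to 4 (difference 0.37, limma adjusted p = 0.337). Its single cluster was thus not lower in the deleted group. The exons removed are not named, so this cluster cannot check the labels. Of 10 CD4 T cell markers 9 were measured, with list means of 12.24 to 12.29 in wild type and 12.15 to 12.20 in Bcl6 cKO, and 1 of the 9 was higher in Bcl6 cKO. All measured markers of B cells (6), myeloid cells (7) and dendritic cells (6) lay below the median gene, and 4 of 5 NK cell markers lay no higher than the range of Y-linked genes on the arrays low in them (4.58 to 5.83). Of 6 stromal and epithelial markers 2 lay below the median gene, and the brightest, Pecam1, which T cells can also express, had a mean of 9.68. Cd8a was dim (mean 6.98), but Cd8b1 was not (10.80). Signal of Y-linked genes was high on wild-type replicates 1 to 3 and on Bcl6 cKO replicate 1, so genotype was partly confounded with sex. Wild-type replicate 4, the wild-type array low in Y-linked genes, had the lowest array weight of the 8 (0.367, against 0.759 for the next). In cells measured in bulk, a different share of a cell type and a different amount of RNA per cell cannot be told apart.

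No proteasome gene passed the test between genotypes, and the differences were small. Of 50 members 0 had an adjusted p below 0.05 (limma, Benjamini-Hochberg over all genes), against 0.105% of all genes called higher, 0.115% called lower and 0.221% in either direction. Without adjustment 4 members were higher and 1 lower at p below 0.05, against 4.67% and 6.17% of all genes. The smallest adjusted p was 0.348. The 95% confidence intervals of all 50 log2 differences (Bcl6 cKO minus wild type) lay between -0.33 and 0.41, and the median standard error was 0.0604.

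Most members leaned slightly the same way, and 1 array carried much of that lean. The mean was higher in Bcl6 cKO for 40 of 50 members (80.0%), against 52.1% of all genes, with a median log2 difference of 0.058 against 0.003. Among the 2915 genes at or above the members' lower quartile of signal, 58.7% were higher, with a median of 0.020. Averaged over the 50 members, the signal read 11.03, 10.99, 11.01 and 10.88 on wild-type replicates 1 to 4 and 11.00, 11.02, 11.08 and 11.02 on Bcl6 cKO replicates 1 to 4. Wild-type replicate 4 was thus the low array, and the groups otherwise overlapped. It had the lowest of the 8 values, ties included, for 35 members (70.0%), against 23.4% of all genes and 46.9% of the bright genes. Bcl6 cKO replicate 3 had the highest value for 28 members, against 19.9% of all genes. Without wild-type replicate 4 the members' median difference was 0.023 and 33 of 50 (66.0%) were higher, against 0.007 and 53.4% of all genes. The median was -0.008 within the arrays high in Y-linked genes, which set 3 wild-type arrays against 1, and 0.160 within the others, which set wild-type replicate 4 alone against 3. The interaction of genotype and sex passed for 1 of all 19938 genes and 0 of 50 members (limma). Without adjustment 9 members (18.0%) and 11.8% of all genes had p below 0.05 for it. Arrays also differed by replicate number, whose meaning the labels do not give. The mean of the odd-numbered arrays exceeded that of the even-numbered ones for 45 of 50 members (90.0%), against 51.8% of all genes and 68.2% of the bright genes. The 5 members higher on even numbers included Psmb8, Psmb9 and Psmb10. Genotype is balanced over odd and even numbers, so a term for them cannot change a difference between genotypes. The members' median of 0.058 with that term is therefore no separate check. The cause of the odd and even difference was not tested.

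**Figure D1:**
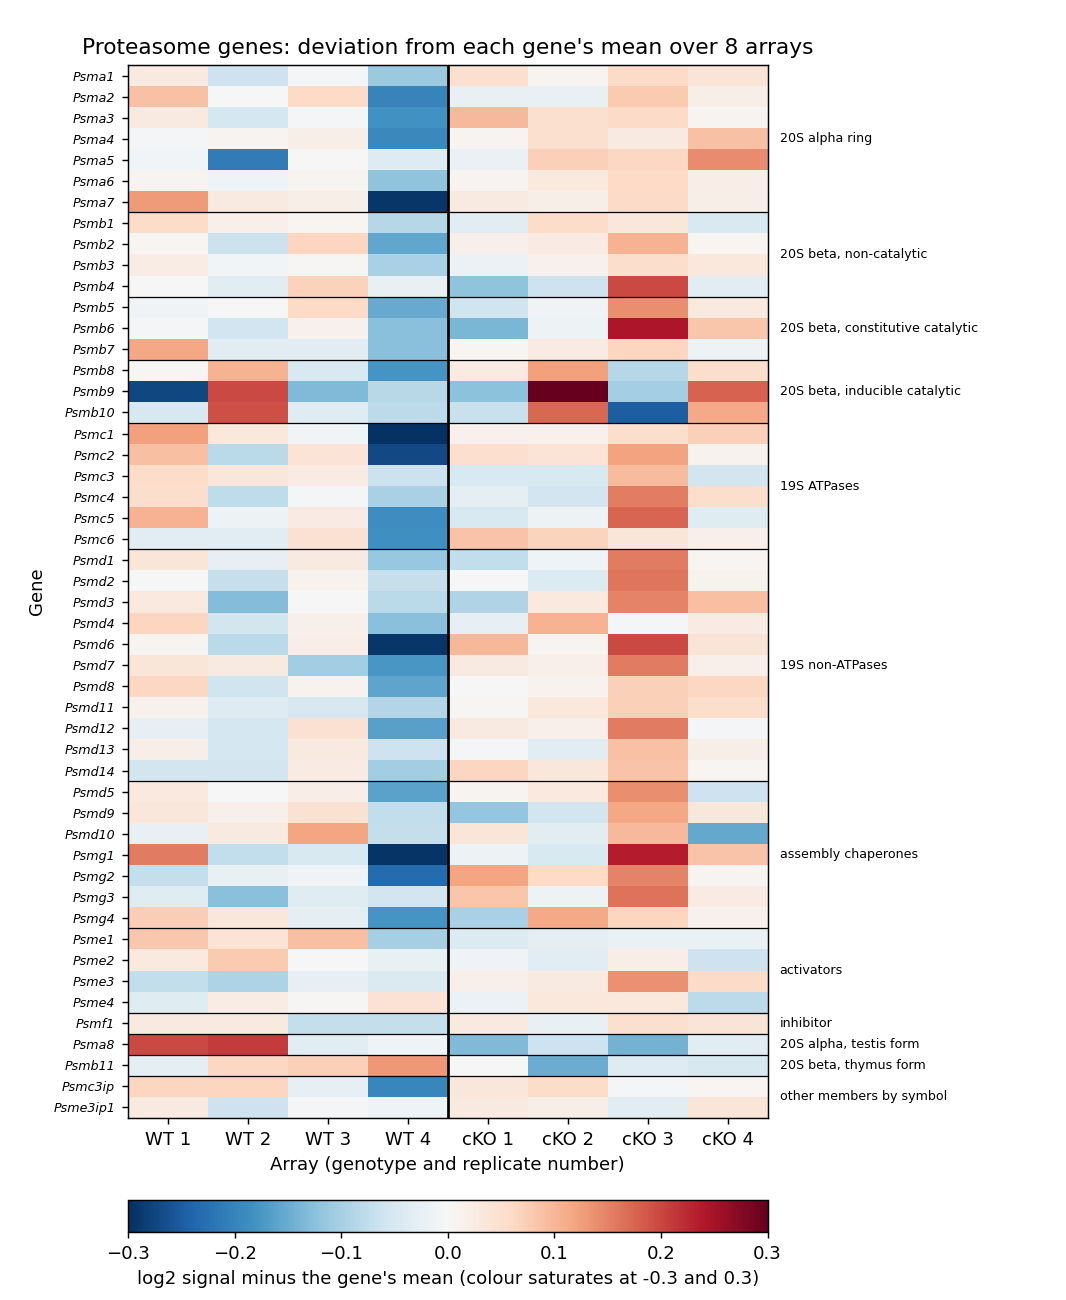
Each row is 1 of 50 proteasome genes, ordered by role, and each column is 1 array (wild type left, Bcl6 cKO right). Colour is the log2 signal minus that gene's mean over 8 arrays. Wild-type replicate 4 is the lowest array for 35 genes, Psmb8 among them, and Bcl6 cKO replicate 3 the highest for 28. Unlike most members, the inducible subunits Psmb8, Psmb9 and Psmb10 have higher means on the even-numbered arrays.

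The alpha subunits form the outer rings of the core and gate its entry. All 7 (Psma1 to Psma7) had higher means in Bcl6 cKO, by 0.03 to 0.13, and none passed. Psma3 read 11.95, 11.87, 11.92 and 11.74 in wild type and 12.02, 11.97, 11.98 and 11.93 in Bcl6 cKO (log2, replicates 1 to 4 here and below). Its groups overlapped only in that wild-type replicate 1 exceeded Bcl6 cKO replicate 4, and the difference was 0.10 (SE 0.0566, limma adjusted p = 0.551). The other clusters of Psma3 gave 0.11 and 0.14. Psma5 read 10.75, 10.55, 10.76 and 10.72 against 10.74, 10.83, 10.82 and 10.90, with replicate 2 as its low wild-type array (difference 0.13, adjusted p = 0.495). Wild-type replicate 4 was lowest for the 6 alpha subunits other than Psma5. Without it, Psma2 and Psma7 were lower in Bcl6 cKO (both -0.03) and the median of the 7 went from 0.075 to 0.035.

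The non-catalytic beta subunits Psmb1 to Psmb4 complete the inner rings. Their differences ran from -0.01 to 0.08, with 3 of 4 higher. Psmb2 read 12.47, 12.40, 12.53 and 12.31 in wild type and 12.48, 12.49, 12.57 and 12.47 in Bcl6 cKO (adjusted p = 0.719). Here again the low value is wild-type replicate 4, and the other 7 arrays overlapped.

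The constitutive catalytic subunits differed by no more than 0.09 between genotypes. Psmb5, which cuts after hydrophobic residues, read 12.90, 12.91, 12.97 and 12.76 in wild type and 12.85, 12.90, 13.05 and 12.94 in Bcl6 cKO (difference 0.05, SE 0.0627, adjusted p = 0.857). Psmb6, which cuts after acidic residues, read 11.34, 11.29, 11.36 and 11.22 against 11.21, 11.33, 11.59 and 11.43 (difference 0.09, adjusted p = 0.763). The lowest and the highest of its 8 values were both in Bcl6 cKO. Psmb7, which cuts after basic residues, read 11.71, 11.56, 11.56 and 11.47 against 11.60, 11.62, 11.66 and 11.58 (difference 0.04, adjusted p = 0.880).

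The inducible catalytic subunits varied more between arrays of a group than between genotypes. Psmb8, the counterpart of Psmb5, read 11.15, 11.25, 11.10 and 10.97 in wild type and 11.17, 11.27, 11.06 and 11.20 in Bcl6 cKO (difference 0.06, SE 0.0692, adjusted p = 0.849). Psmb9, the counterpart of Psmb6, read 9.97, 10.44, 10.11 and 10.16 against 10.12, 10.58, 10.14 and 10.42 (difference 0.15, SE 0.120, adjusted p = 0.738). Its SD was 0.20 within wild type and 0.22 within Bcl6 cKO. The Psmb9 difference was 0.06 without Bcl6 cKO replicate 2, 0.08 without wild-type replicate 1 and 0.24 without wild-type replicate 2. Psmb10, the counterpart of Psmb7, read 10.48, 10.72, 10.49 and 10.45 against 10.46, 10.70, 10.28 and 10.64 (difference -0.01, SE 0.0953, adjusted p = 0.980). Wild-type replicate 2 and Bcl6 cKO replicates 2 and 4 held the 3 highest values of each of Psmb8, Psmb9 and Psmb10. The same 3 arrays were highest for Irf1, an interferon-induced factor known to activate these genes. Its part in their values was not tested. Irf1 read 10.53, 11.27, 10.44 and 11.07 in wild type and 10.60, 11.68, 10.72 and 11.28 in Bcl6 cKO, and it was chosen after its values were seen, as was Tap1. Tap1, the peptide transporter gene that shares its upstream region with Psmb9, read 11.21, 11.58, 11.17 and 11.45 against 11.09, 11.66, 11.18 and 11.42, with the even-numbered replicates highest in both genotypes.

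The RNA of subunits that replace each other was compared within arrays as the log2 difference of inducible minus constitutive gene. RNA alone does not show which subunits enter the core. Only the change of this difference between genotypes is read, since 2 probe sets do not share a scale. Psmb8 against Psmb5 stood at -1.77 ± 0.09 for the wild-type and -1.76 ± 0.16 for the Bcl6 cKO arrays (SD, n = 4 each; two-sided exact permutation test, p = 0.971). Psmb9 against Psmb6 stood at -1.13 ± 0.23 and -1.08 ± 0.29 (n = 4 each; exact p = 0.800). Psmb10 against Psmb7 stood at -1.04 ± 0.16 and -1.09 ± 0.21 (n = 4 each; exact p = 0.743). The 3 p-values, each 0.971 after adjustment over the 3 pairs, can be no lower than 0.0286 before adjustment in this design. The changes of 0.01, 0.06 and -0.05 were each smaller than 1 SD of either group.

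**Figure D2:**
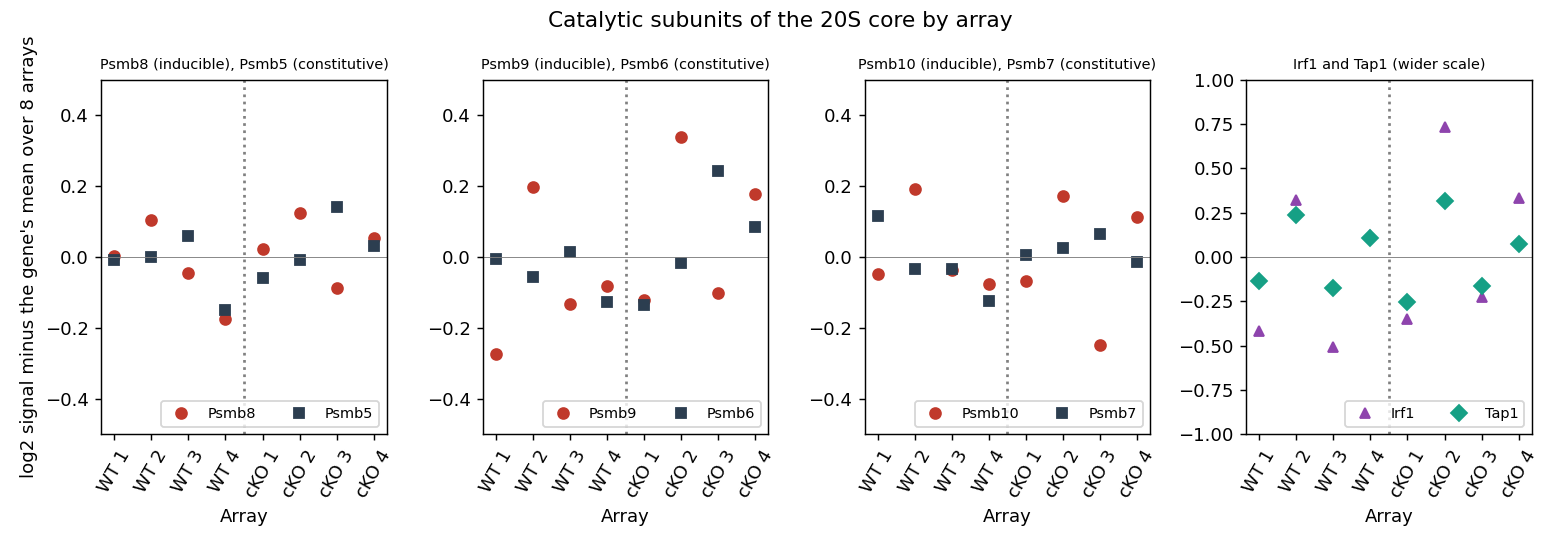
Points are log2 signals minus the gene's mean over 8 arrays (y axis) for each array (x axis), for 3 inducible subunits (red circles) with their constitutive counterparts (dark squares), and for Irf1 and Tap1 on a wider axis. Psmb8, Psmb9 and Psmb10 are highest on wild-type replicate 2 and Bcl6 cKO replicates 2 and 4, and none separates the genotypes.

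The 19S cap followed the pattern of the core. Of its 6 ATPases (Psmc1 to Psmc6), which form the unfolding ring, 5 were higher in Bcl6 cKO, by up to 0.11, and wild-type replicate 4 was the lowest array for all 6. Psmc2 read 10.68, 10.51, 10.63 and 10.32 in wild type and 10.64, 10.63, 10.71 and 10.60 in Bcl6 cKO (difference 0.11, adjusted p = 0.668). Without wild-type replicate 4 its difference was 0.04. Psmc6 read 11.47, 11.47, 11.55 and 11.32 against 11.59, 11.57, 11.54 and 11.52 (difference 0.10, adjusted p = 0.563).

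The 11 non-ATPase subunits of the cap (scaffold, ubiquitin receptors and lid) were all higher in Bcl6 cKO, by 0.04 to 0.17. All 11 stayed higher without wild-type replicate 4 (median 0.059, against 0.080 with it). They did not all stay higher within the arrays high in Y-linked genes, which hold 1 Bcl6 cKO array. There Psmd1, Psmd3 and Psmd4 were lower (-0.09, -0.06 and -0.03), Psmd8 and Psmd13 were level, and the others were higher by 0.02 to 0.12. None passed. Psmd6, a lid scaffold subunit, had the largest upward difference of all 50 members, 0.17 (SE 0.0756, limma adjusted p = 0.441). Its values were 11.32, 11.23, 11.33 and 11.02 in wild type and 11.41, 11.32, 11.51 and 11.35 in Bcl6 cKO. Wild-type replicate 4 stood lowest, and without it the difference was 0.10. Psmd14, the lid enzyme that removes ubiquitin chains from substrates, read 12.47, 12.47, 12.55 and 12.42 against 12.59, 12.56, 12.61 and 12.53 (difference 0.09, adjusted p = 0.532). Only wild-type replicate 3 and Bcl6 cKO replicate 4 overlapped for it.

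**Figure D3:**
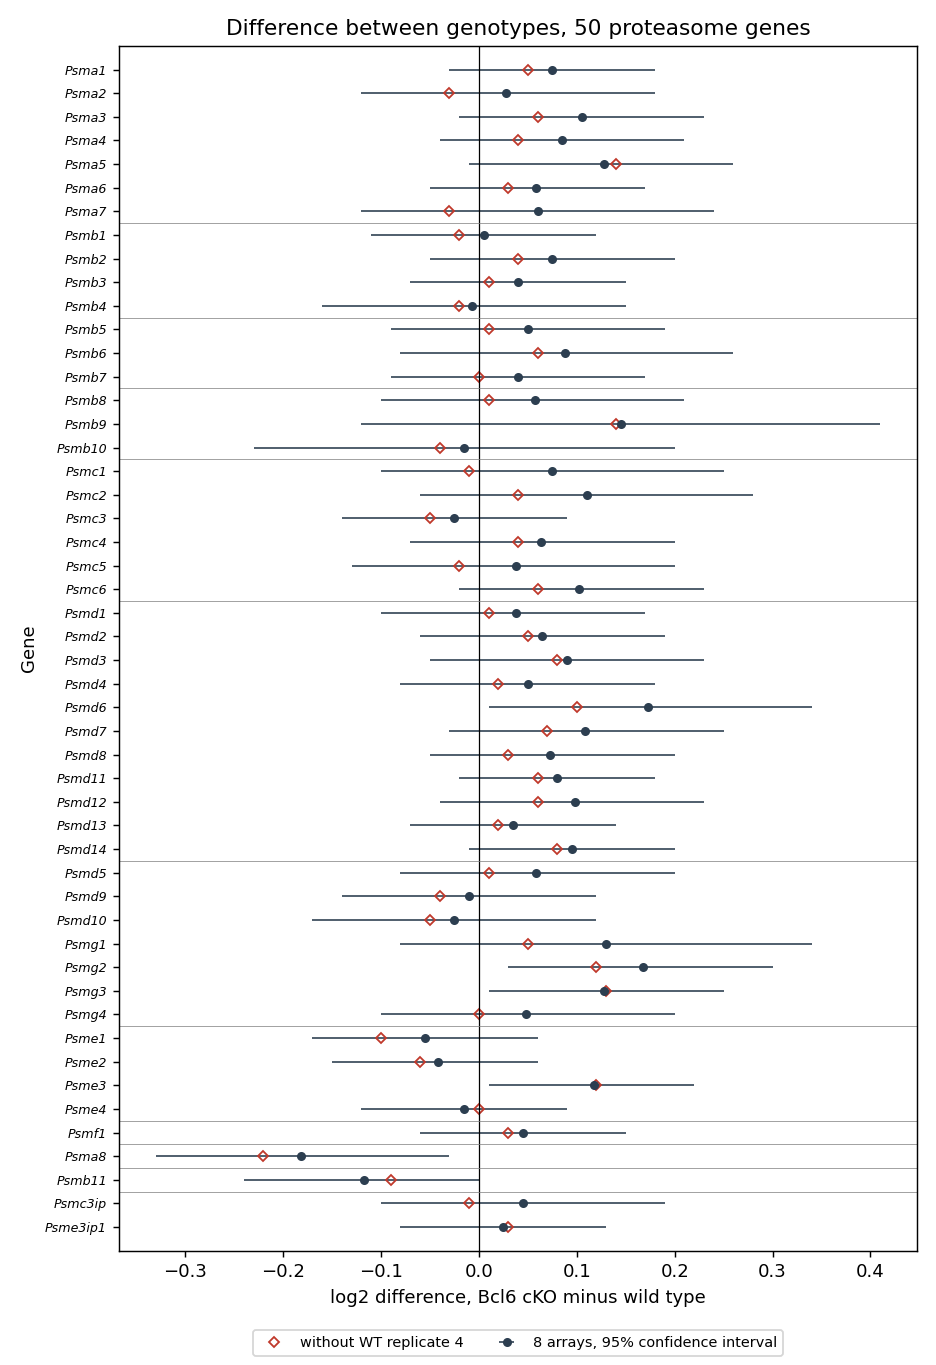
For each of 50 proteasome genes the filled point is the log2 difference of Bcl6 cKO minus wild type over 8 arrays (x axis) with its 95% confidence interval from limma, and the open diamond is the difference without wild-type replicate 4. All intervals lie between -0.33 and 0.41, and most diamonds lie nearer to 0 than their points.

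Assembly chaperones build the rings and are absent from the finished particle. Of 7 (Psmd5, Psmd9, Psmd10 and Psmg1 to Psmg4), 5 were higher in Bcl6 cKO. Psmg2, a chain of the heterodimer that starts the alpha ring, read 11.09, 11.14, 11.15 and 10.93 in wild type and 11.28, 11.22, 11.31 and 11.17 in Bcl6 cKO. Its groups did not overlap, and it had the smallest p among the members (difference 0.17, SE 0.0618, limma adjusted p = 0.348). Psmg3, part of the other alpha-ring chaperone pair, read 8.05, 7.96, 8.05 and 8.03 against 8.17, 8.07, 8.25 and 8.11. Its groups did not overlap either (difference 0.13, SE 0.0541, adjusted p = 0.421). Without wild-type replicate 4 the differences of Psmg2 and Psmg3 were 0.12 and 0.13.

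Of the activators, which cap the core in place of the 19S particle, Psme3 stood apart from the interferon-induced pair. Psme3, the nuclear activator, read 12.56, 12.54, 12.61 and 12.59 in wild type and 12.65, 12.66, 12.77 and 12.69 in Bcl6 cKO. Every Bcl6 cKO array was above every wild-type array, by a mean of 0.12 (SE 0.0485, limma adjusted p = 0.408), and the difference was 0.12 without wild-type replicate 4. With Psmg2 and Psmg3 it made 3 of 50 members with higher, non-overlapping groups, against 2.33% of all genes. No member had lower, non-overlapping groups, against 3.64% of all genes. Psme1, 1 of the chains of the interferon-induced activator, read 12.59, 12.55, 12.60 and 12.41 against 12.47, 12.48, 12.49 and 12.49 (difference -0.05, adjusted p = 0.795). Without wild-type replicate 4 the groups of Psme1 were separate, with a difference of -0.10 (limma adjusted p = 0.414). With that array left out, 3 of 50 members had higher and 1 had lower non-overlapping groups, against 4.86% and 5.95% of all genes. Its partner Psme2 read 12.31, 12.36, 12.28 and 12.26 against 12.27, 12.25, 12.30 and 12.22 (difference -0.04, adjusted p = 0.828). The nuclear activator Psme4 differed by -0.01 (adjusted p = 0.960) and the core inhibitor Psmf1 by 0.05 (adjusted p = 0.823).

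The tissue-restricted subunits were dim. Psma8, the alpha subunit of the testis, read 6.13, 6.14, 5.90 and 5.92 in wild type and 5.80, 5.87, 5.79 and 5.90 in Bcl6 cKO, with the 2 groups touching at 5.90. These values border the 4.58 to 5.83 of Y-linked genes on the arrays low in them, so Psma8 was not shown to stand above background (difference -0.18, adjusted p = 0.352). Psmb11, the catalytic subunit of thymic cortical epithelium, read 6.69, 6.78, 6.79 and 6.85 against 6.72, 6.57, 6.68 and 6.67 (difference -0.12, adjusted p = 0.475). The other 48 members had means above the median gene. The symbol pattern also takes in Psmc3ip, a partner of recombinases in meiosis (difference 0.05, adjusted p = 0.877), and Psme3ip1, an interactor of Psme3 named after its values were seen (difference 0.02, adjusted p = 0.913), neither of which is a subunit.

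Among genes that mature or regulate the proteasome none passed, but several had separate groups. Of 24 listed, 20 were measured, 16 higher and 4 lower in Bcl6 cKO, with a median difference of 0.071 (0.014 without wild-type replicate 4, 11 of 20 higher). The groups of 5 of the 20 did not overlap, against 5.97% of all genes: Nfe2l2 lower, and Uchl5, Usp14, Rad23b and Txnl1 higher. The list was chosen with earlier results of these data known, so this count is not independent support. Nfe2l2, a transcription factor known for inducing proteasome genes under oxidative stress, read 10.80, 11.00, 10.93 and 11.00 in wild type and 10.65, 10.70, 10.59 and 10.61 in Bcl6 cKO. Every Bcl6 cKO array was below every wild-type array. The difference was -0.30 (95% confidence interval -0.42 to -0.17, SE 0.0582, limma adjusted p = 0.0789). It ran from -0.37 to -0.26 over the 19 other settings, with an adjusted p of 0.0471 to 0.995, and passed in 1 of them, with a trend and robust variance. Uchl5 and Usp14 are deubiquitinases bound to the 19S cap. Uchl5 read 10.77, 10.85, 10.84 and 10.69 against 10.96, 11.02, 11.03 and 10.96 (difference 0.21, SE 0.0527, adjusted p = 0.169). Usp14 read 11.01, 11.05, 11.06 and 10.87 against 11.13, 11.15, 11.13 and 11.12 (difference 0.14, adjusted p = 0.391). Rad23b, a shuttle for ubiquitinated proteins, and Txnl1, a cap-bound thioredoxin, were named after their values were seen (differences 0.10 and 0.09, adjusted p = 0.535 and 0.643). The groups of Txnl1 were barely apart (highest wild-type value 10.90, lowest Bcl6 cKO value 10.91).

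**Figure D4:**
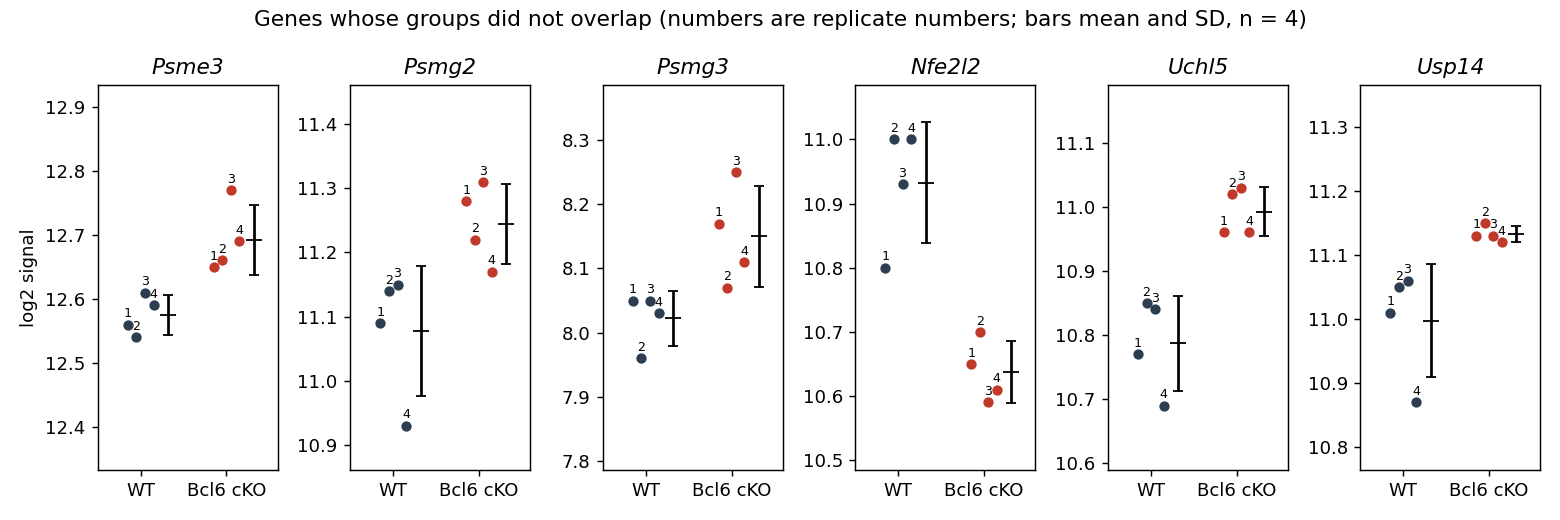
Log2 signals (y axis, each panel spanning 0.6) of 3 proteasome genes and 3 regulators by genotype, with the replicate number at each point and the mean and SD (n = 4) at the side. The genes were picked because their groups did not overlap, so in each panel no Bcl6 cKO point lies within the wild-type range. Rad23b and Txnl1, whose groups did not overlap either, are not shown. Nfe2l2 is lower and the other 5 genes are higher in Bcl6 cKO.

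No gene of the steps after the proteasome passed the test. Of 16 genes of MHC class I antigen processing 12 were measured, 9 higher and 3 lower, with a median difference of 0.029. The smallest p-values belonged to the peptidase Ide (difference 0.11, adjusted p = 0.494), the peptide-trimming protease Erap1 (0.12, adjusted p = 0.590) and the chaperone Pdia3 (0.08, adjusted p = 0.641). Of 8 inducers of the immunoproteasome and their receptors and signal carriers, 7 were measured, 3 higher and 4 lower. Ifng, the cytokine best known for inducing it, read 7.07, 7.75, 7.17 and 7.36 in wild type and 7.24, 9.92, 7.55 and 8.40 in Bcl6 cKO. Bcl6 cKO replicate 2 was far above the rest, and the difference of 0.94 did not pass (SE 0.467, adjusted p = 0.518). It was 0.39 without that array, and 1.29 at most when another single array was left out. The kinase Jak1 differed by -0.13 (adjusted p = 0.441) and the receptor chain Ifngr1 by -0.26 (adjusted p = 0.542). Of 6 genes for ubiquitin and its activating enzymes only Uba6, an activating enzyme, was measured (0.09, adjusted p = 0.597).

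Proliferation genes had the same low array. Of 18 listed 17 were measured and all 17 were higher in Bcl6 cKO, with a median difference of 0.218 and none past the threshold. Without wild-type replicate 4 the median was 0.170 and all 17 were still higher. Top2a, the topoisomerase of dividing cells, differed by 0.45 (adjusted p = 0.226), the mitotic kinase Bub1 by 0.58 (adjusted p = 0.322) and the thymidylate synthase gene Tyms by 0.36 (adjusted p = 0.369). The list mean was 10.25, 10.51, 10.27 and 10.07 in wild type and 10.39, 10.33, 10.68 and 10.78 in Bcl6 cKO, lowest on wild-type replicate 4 as for the proteasome genes. Its part in the lean of the proteasome genes was not tested.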

How the data were processed

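The authors deposited a log2 signal for each transcript cluster on each array. The submitters' processing notes name RMA and Partek, without versions or settings. RMA brings all arrays to 1 distribution and lowers differences of dim genes. Of 35556 clusters, 21789 carry 1 gene symbol in the platform annotation, which gave 19938 genes (highest-mean cluster per gene). No column of sample values was unused. The comparison of genotypes used lmFit and eBayes of limma 3.58.1 (R 4.3.3) on all genes, with no filter or covariate and Benjamini-Hochberg adjustment (threshold 0.05). The RNA of subunits that replace each other was compared by two-sided exact permutation tests. Sex was read from Y-linked genes and Xist. RefSeq entries pseudogenes of Psma5, Psmb5, Psmb6 and Psmb7; whether probes read them was not tested. No pair of arrays shared more than 3.94% of values. On simulated data with 200 of 19938 genes changed, this test found 25.5% of those shifted by 0.25 (log2) and 83.4% of those shifted by 0.5, with 5.25% false calls. Genes were simulated as independent. Arrays have no read depth, so their number limits precision.

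The members and lists were chosen with earlier results of these data known. Named genes are the catalytic, activator, inhibitor, tissue-restricted and misnamed members, the 2 members of each role with the smallest p, members whose groups did not overlap, and the 3 genes of each other list with the smallest p. Same-numbered samples were not treated as pairs.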

Additional observations from a re-analysis of the deposited data

Results flagged for a closer look

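In groups of 4 arrays, the highest or lowest value was compared with its nearest neighbour by Dixon's ratio at its 95% critical value, which chance exceeds in about 1 in 20 groups. Among 100 groups of the 50 members 7 stood out. Wild-type replicate 4 was low for Psma4 (11.54, next 11.73), Psma6 (12.02, next 12.13) and Psmd5 (10.65, next 10.81). Bcl6 cKO replicate 3 was high for Psmc3 (10.41, next 10.27), Psmc5 (10.05, next 9.86) and Psmd7 (11.80, next 11.67). Wild-type replicate 2 was high for Psmb10 (10.72, next 10.49). Outside the members, Erap1 was low on wild-type replicate 4 (10.17, next 10.40) and high on Bcl6 cKO replicate 2 (10.60, next 10.44).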

How the results depend on the processing

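The counts of 0 members called higher and 0 called lower held in all 19 other settings. Over all genes 21 were called higher and 23 lower; lower counts were 51 with array weights, 61 with trend and robust variance, 42 with the filter at the 30th percentile, 13 after median centring and 14 after quantile normalization. With a term for odd against even replicate numbers they were 33 higher and 60 lower, with sex 5 and 5, within the arrays high in Y-linked genes 0 and 0 (852 genes at an unadjusted p below 0.05), and within the others 32 and 11. Leaving out 1 array gave 5 to 39 higher and 5 to 100 lower: 39 and 100 without Bcl6 cKO replicate 1, and no more than 12 and 10 without any other array. The regulators and antigen processing genes called numbered 0, and 1 with trend and robust variance (Nfe2l2, -0.30, adjusted p = 0.0471). The members' median difference of 0.058 was -0.008 and 0.160 within the arrays high and low in Y-linked genes and 0.023 to 0.079 without 1 array. Each lone array within a sex is assumed to vary like the rest.

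Of 683 values of the 36 named genes under other settings 12 changed sign, 670 kept sign and side, and 1 passed the threshold (Nfe2l2, above). Trend and robust variance, the filter, a block for replicate number and the odd or even term leave every difference as it was. No sign could change under these settings. Sign changes within the arrays high in Y-linked genes were Psmb9 (-0.05), Psmb5 (-0.08), Psmb6 (-0.12), Psmb7 (-0.01) and Ifng (-0.09), and within the others Psmb10 (0.09) and Psme1 (0.08). Without 1 array Psmb10 ran from -0.07 to 0.07, Psme4 from -0.03 to 0.01 and Psmc3ip from -0.01 to 0.07. The change of Psmb8 against Psmb5 ran from -0.04 to 0.08 without 1 array, of Psmb9 against Psmb6 from -0.05 to 0.18 and of Psmb10 against Psmb7 from -0.12 to 0.04. Psmb9 against Psmb6 was -0.01 within the arrays low in Y-linked genes. The causes were not tested. Without wild-type replicate 4, chosen after seeing the data, 3 of 50 members had higher and 1 had lower non-overlapping groups. The shares of all genes were 4.86% and 5.95%.

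With the replicate number as a block (replicate block) 0 members were called, against 0.176% of all genes, and 5 were higher and 1 lower at an unadjusted p below 0.05 (6 of 50, against 12.4% of all genes); the smallest adjusted p was 0.242, and Psmb9 had 0.344. Same-numbered arrays had correlations of their deviations of 0.073, 0.206, 0.203 and 0.205, so 3 of 4 pairs deviated together and 1 did not reach 0.1, the level asked of every pair; the samples were not treated as paired. Wild-type replicate 1 correlated best with Bcl6 cKO replicate 3 (0.178), and wild-type replicate 3 with Bcl6 cKO replicate 1 reached 0.186. Values of this size were thus not limited to same-numbered arrays. The remaining differently numbered arrays reached at most 0.097. Differences of 0.25 or less were mostly below what 4 against 4 arrays recovered in simulation.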
